A study of Mus musculus with 2 samples.

Results

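The erythroid and megakaryocyte priming genes examined here are Gata1, Klf1, Nfe2, Zfpm1, Tfrc, Vwf, Pf4 and Cd9, 8 of the 21887 protein-coding genes of chromosomes 1 to 19, X and Y in the RefSeq table of the mouse build GRCm38 (mm10). They were chosen by name, and all 8 were found in that table. For each gene, every accessible region that overlapped the gene body or the 50 kb on either side was taken from both deposited region lists. This gave 15 of 13156 regions with H1C and 38 of 32005 in control. Regions within 1 kb of an end of the gene were called gene-end regions. The other regions were split into those within 1 kb of an end of another protein-coding gene and distal regions. The windows of Cd9 and Vwf overlap, and the 2 control regions and 1 H1C region that lie in both are counted once in all totals.

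The data are ATAC-seq, an assay that marks open DNA through the adapters a transposase inserts there, from hematopoietic stem cells sorted as CD48-CD150+LSK from bone marrow of wild-type C57BL/6J mice. One group had been transduced with a retrovirus carrying H1C, a linker histone gene now named H1f2 (MSCV-H1C), and the other with the empty retrovirus (pMSCV, control). Each group held 1 library of about 1000 cells, per the labels. The age of the mice, the number pooled, the time after transduction and the share of cells that carried the virus are not given in the sources used here. With 1 library per group no difference has a replicate check and no test between the groups was possible. In a bulk library, fewer cells with an open region and less opening in each cell cannot be told apart.

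GATA1 is the transcription factor on which both red cell and megakaryocyte development depend, and ZFPM1, also called FOG1, is the cofactor that binds it. KLF1 activates globin and other red cell genes, and NFE2 pairs with small Maf proteins to drive platelet formation. Stem cells are known to hold some such lineage genes in an accessible state before commitment, and a subset of stem cells that expresses Vwf is known to be biased toward platelets. Linker histones such as H1C sit on the nucleosome at the entry and exit of its DNA and favour compact chromatin.

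RefSeq promoter windows, 250 bases before to 50 bases after a gene's start (GRCm38.p6), were found for 6 of the 8 genes. Tfrc has 2 such windows. The 250 bases before the start are shown for 5 genes, because their CpG content differs between the promoters accessible in both libraries and most of those accessible in neither. Each sequence is written 5′ to 3′ on the strand of its gene, and capitals mark CpG dinucleotides. Tfrc (chr16:32608646-32608895, plus strand) and Zfpm1 (chr8:122281891-122282140, plus strand) were overlapped by a region in both libraries. Cd9 (chr6:125494761-125495010, minus strand), Klf1 (chr8:84901732-84901981, plus strand) and Pf4 (chr5:90772185-90772434, plus strand) were overlapped in neither.
Tfrc: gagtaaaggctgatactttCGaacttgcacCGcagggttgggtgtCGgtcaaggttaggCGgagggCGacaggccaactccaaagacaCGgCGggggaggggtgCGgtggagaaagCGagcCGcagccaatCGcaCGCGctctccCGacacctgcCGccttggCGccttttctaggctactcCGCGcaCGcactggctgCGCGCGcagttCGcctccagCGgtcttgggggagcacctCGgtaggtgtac
Zfpm1: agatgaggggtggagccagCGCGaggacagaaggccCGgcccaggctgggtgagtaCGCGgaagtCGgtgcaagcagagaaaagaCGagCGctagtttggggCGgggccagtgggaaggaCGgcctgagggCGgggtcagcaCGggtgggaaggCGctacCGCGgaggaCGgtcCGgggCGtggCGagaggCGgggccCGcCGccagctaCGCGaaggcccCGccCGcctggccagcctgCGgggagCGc
Cd9: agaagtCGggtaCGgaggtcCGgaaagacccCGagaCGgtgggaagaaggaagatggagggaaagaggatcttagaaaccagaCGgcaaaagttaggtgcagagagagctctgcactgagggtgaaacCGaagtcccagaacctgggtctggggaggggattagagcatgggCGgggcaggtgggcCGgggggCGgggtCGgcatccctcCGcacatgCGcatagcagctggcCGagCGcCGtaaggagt
Klf1: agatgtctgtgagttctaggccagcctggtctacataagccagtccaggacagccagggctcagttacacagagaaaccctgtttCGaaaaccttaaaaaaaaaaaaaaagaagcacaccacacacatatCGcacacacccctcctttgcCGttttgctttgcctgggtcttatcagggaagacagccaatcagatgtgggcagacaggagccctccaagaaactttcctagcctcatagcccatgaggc
Pf4: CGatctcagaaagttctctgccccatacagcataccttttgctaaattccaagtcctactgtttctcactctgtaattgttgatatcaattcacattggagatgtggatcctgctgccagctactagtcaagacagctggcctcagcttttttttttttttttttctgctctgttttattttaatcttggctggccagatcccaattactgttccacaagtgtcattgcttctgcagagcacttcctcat

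The full 300-base windows held 37 CpG dinucleotides at Zfpm1 and 30 in each window of Tfrc, and these windows were accessible with H1C and in control. Gata1 had 4, Klf1 3 and Pf4 3, and no region overlapped these windows in either library. The window of Cd9 held 18 CpG dinucleotides and had no region either. Over all 21263 promoter windows of protein-coding genes, a region overlapped 0.978% with H1C and 4.11% in control of the 6035 windows with 0 to 4 CpG dinucleotides. Among the 2316 windows with 15 to 19, the shares were 48.4% with H1C and 67.0% in control. Among the 5263 windows with 25 or more they were 59.9% with H1C and 75.3% in control. In control Cd9 was thus in the minority of its composition class, while with H1C the larger part of that class had no region either. The other members with a window were in the majority of their classes in both libraries.

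**Figure D1:**
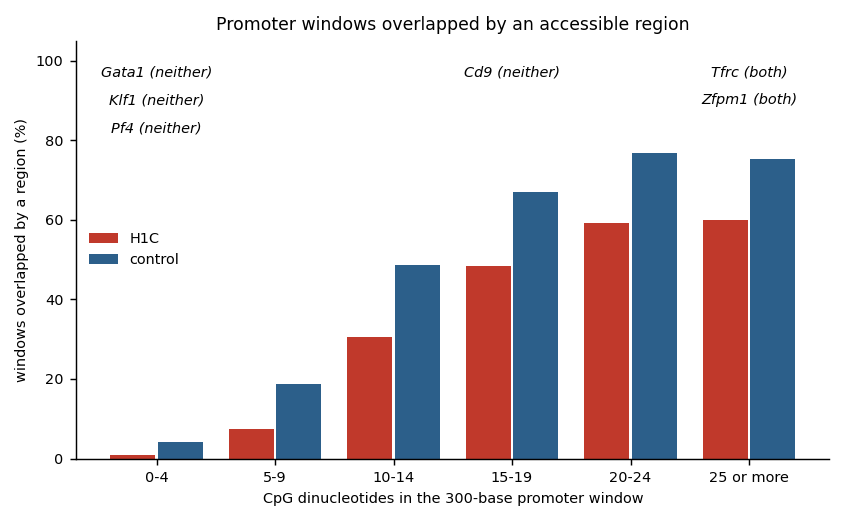
Share of all promoter windows overlapped by an accessible region (y axis, %) by the number of CpG dinucleotides in the window (x axis), with H1C in red left of control in blue. Names mark the class of each member and whether its window was overlapped in both lists or in neither: Gata1, Klf1 and Pf4 fall in the lowest class, where 0.978% of windows with H1C and 4.11% in control were overlapped, and Tfrc and Zfpm1 in the highest.

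The core letters bound by GATA factors, GATAA or TTATC on the other strand, occurred in 22.5% of all promoter windows. Among the members they occurred once in the Klf1 window, 80 bases before the start (ttatc in the sequence above), and once in the Pf4 window, 37 bases after it. They occurred in none of the Gata1, Zfpm1, Tfrc and Cd9 windows. A KLF-type motif, CCNCNCCC on either strand, occurred in 56.6% of all windows, and in those of Cd9 (4 matches), Gata1 (3), Zfpm1 (4) and Tfrc (5 and 3), some of them overlapping each other. The NF-E2 and AP-1 core TGANTCA, in 6.99% of all windows, occurred in no member window. These matches describe letters only.

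Over the whole series H1C had 13012 regions and control 31843 on chromosomes 1 to 19, X and Y. The lowest local background, which scales with depth, was 4.40 with H1C and 3.99 in control, a ratio of 1.10 by which pileup ratios were divided. The pileup is the number of fragments or reads stacked at the summit of a region, solved from the deposited fold and −log10 p. Of 8 stem cell markers, 0 had a gene-end region with H1C and 5 in control, against 33.6% of all protein-coding genes with H1C and 46.9% in control. They were led by Ly6a (pileup 28), Kit (24) and Meis1 (24). Myeloid markers had a gene-end region at 0 of 5 genes with H1C and 1 in control (Itgam), mast cell and basophil markers at 0 of 4 with H1C and 1 in control (Il1rl1), and endothelial markers at 0 of 4 with H1C and 2 in control (Kdr and Cdh5). Lymphoid markers had one at 1 of 5 genes with H1C (Cd79a) and at 3 in control (Cd79a, Il7r and Cd3e). The defining myeloid genes Elane and Mpo and the mast cell genes Cpa3 and Mcpt8 had no gene-end region in either library.

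Near the 8 genes, the H1C library kept most control regions at gene ends, with lower summits, and few of the others. Of the 38 control regions, 14 overlapped an H1C region (36.8%, exact Clopper-Pearson 95% interval 21.8 to 54.0), against 34.1% of all control regions. In lists cut to equal length by −log10 p the share was 72.2% (13 of 18), against 67.3% of all, and among control regions with pileups of 30 or more it was 61.9% (13 of 21), against 64.2% of all. Of the 15 H1C regions, 14 overlapped a control region, against 85.0% of all H1C regions. The accessible length was 6685 bp with H1C and 17689 bp in control. The median gene had 2 regions with H1C and 5 in control, against 1 with H1C and 3 in control over all protein-coding genes. Intervals here and below cover counting error only, and amplified fragments are not independent molecules.

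**Figure D2:**
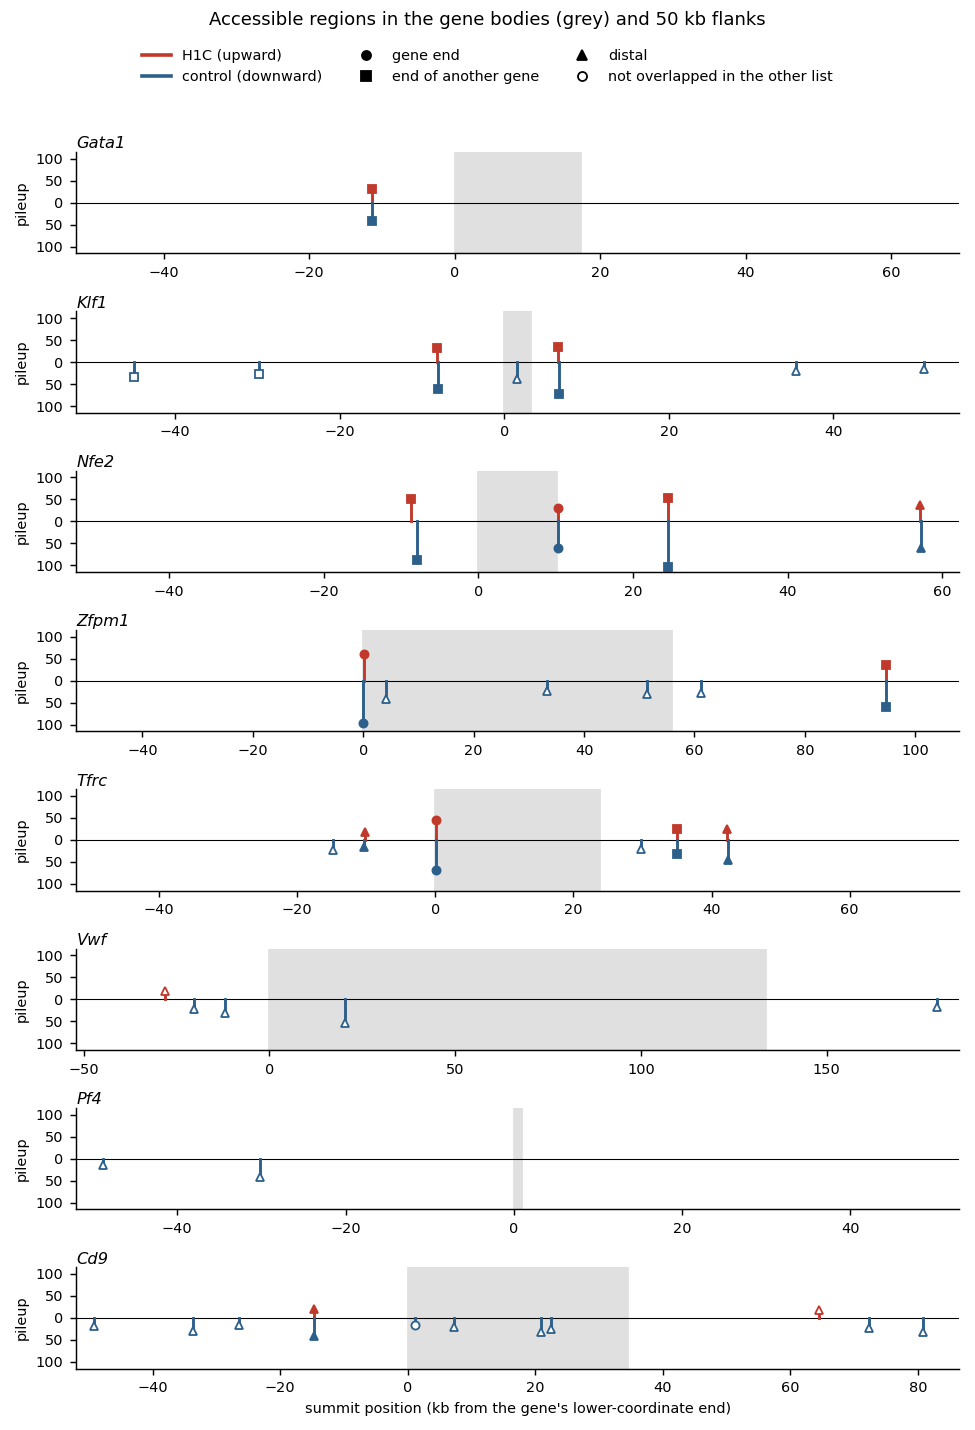
Summit pileup (y axis, fragments or reads; H1C upward in red, control downward in blue) against distance of the summit from the lower-coordinate end of each gene (x axis, kb), with the gene body in grey. Filled symbols overlap a region of the other list and open symbols do not: Nfe2, Zfpm1 and Tfrc have a filled circle at an end, and Vwf and Pf4 have open symbols only.

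Gene-end regions of the members were kept at 3 of 4 (75.0%, 19.4 to 99.4) and regions at ends of other genes at 7 of 9 (77.8%, 40.0 to 97.2), against 62.9% of all control regions at gene ends. Median control pileups were 64.5 at the members' ends and 59 at ends of other genes, against 44 over all control regions at gene ends. Distal regions were kept at 4 of 25 (16.0%, 4.54 to 36.1), against 20.7% of all distal control regions. Each background lies inside the interval of the members' share, so at these counts no class could be told apart from the rest of the genome. All 8 distal regions inside a member gene were called in control only, which allows a kept share of up to 36.9%, and the background inside genes was 21.0%. In the flanks 4 of 17 distal regions were kept (23.5%, 6.81 to 49.9), against the same 20.7%.

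At the level of genes, 3 of the 8 had a gene-end region with H1C and 4 in control, against 33.6% of all protein-coding genes with H1C and 46.9% in control. Nfe2, Zfpm1 and Tfrc had one in both libraries, Cd9 in control only, and Gata1, Klf1, Vwf and Pf4 in neither. Of all genes with a control gene-end region, 71.0% had one with H1C. With the gene body counted too, 3 genes had a region with H1C (41.7% of all genes did) and 6 in control (58.9%). Gata1 and Pf4 had none in either library.

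Gata1 lies on chromosome X, 7959260 to 7976663, and its annotated RefSeq start at 7967910 on the minus strand lies inside that span. No region was called in the gene body or at its ends in either library. The nearest region to the start lay 19797 bp away with H1C and 19687 bp away in control, and it is the only region of the window. It sits at an end of Hdac6, a histone and tubulin deacetylase gene, from 7947742 to 7948113 with H1C and from 7947748 to 7948223 in control. Its summit pileup was 32 with H1C and 41 in control, a log2 ratio, H1C over control and scaled for depth, of -0.50 (95% interval -1.21 to 0.20). The interval includes 0, so that difference was within counting error.

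Klf1 lies on chromosome 8, 84901982 to 84905291, on the plus strand. Its body held no region with H1C and 1 in control, from 84903018 to 84903643, with a pileup of 38 and a fold of 5.10 over local background. That region starts 1036 bp after the start of the gene, just outside the 1 kb bound, while the region just inside the bound is that of Cd9, 886 bp from its end with a pileup of 17. The tables used hold no exons, so its place among them was not determined. At the control region's local background, scaled for depth, an H1C summit of 19 would have reached the lowest −log10 p of the H1C list. A region must also be wide enough to be called. Over all shared regions the median local background was lower with H1C, at a ratio of 0.869 to control. At a lower background a lower summit would be enough, so 19 may be too high.

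Around Klf1 the regions at ends of Dnase2a and Gcdh were kept and the weaker ones were not. At an end of Dnase2a, the gene of the nuclease with which macrophages digest the nuclei that red cell precursors expel, the pileup was 34 with H1C and 73 in control (log2 ratio -1.24, -1.88 to -0.64). At an end of Gcdh, a mitochondrial dehydrogenase gene, it was 31 with H1C and 61 in control (-1.12, -1.79 to -0.47). The regions at ends of Farsa, a tRNA synthetase subunit gene (control pileup 35), and Syce2, a meiotic gene (27), and the distal regions with pileups of 21 and 17 were called in control only. In all, 2 of the 7 control regions of the Klf1 window were kept.

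Nfe2 lies on chromosome 15, 103248212 to 103258403, and 4 of 4 control regions of its window were kept. The gene-end region spans the higher-coordinate end, from 103258359 to 103258666 with H1C and from 103258211 to 103258749 in control. Its pileup was 30 with H1C and 61 in control, and its fold 4.49 with H1C and 7.47 in control. The log2 ratio of -1.17 (-1.85 to -0.51) lies below 0 over the whole interval. The region was 308 bp wide with H1C and 539 bp in control, so the H1C region was narrower, and the summits lay 27 bp apart.

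The strongest control region near any of the genes was in the Nfe2 window, at an end of Copz1, a coatomer subunit gene. Its pileup was 54 with H1C and 104 in control (log2 ratio -1.09, -1.59 to -0.60). The broad region between the ends of Cbx5, the gene of a heterochromatin protein, and Hnrnpa1, an RNA-binding protein gene, had pileups of 50 with H1C and 87 in control (-0.94, -1.47 to -0.42). Its summits lay 812 bp apart, so the tallest point was at a different place in each library, whereas the other 13 shared regions had summits within 147 bp. Over all shared regions 7.32% had summits over 200 bp apart. A distal region 46753 bp beyond the higher end in control was kept, with pileups of 36 with H1C and 61 in control (-0.90, -1.54 to -0.29).

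Zfpm1 lies on chromosome 8, 122281856 to 122337862, on the plus strand, and had the strongest gene-end region of the members. It runs from 122281309 to 122282152 with H1C and from 122281286 to 122282139 in control, over the CpG-rich sequence shown above. The pileup was 60 with H1C and 96 in control, with a log2 ratio of -0.82 (-1.31 to -0.34). The width was 844 bp with H1C and 854 bp in control, so this promoter kept nearly its full extent with a lower summit. Its local background was also high, 11.3 with H1C and 14.9 in control, and the fold was 4.97 with H1C and 6.09 in control.

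Inside Zfpm1 the control library had 3 further regions, at 4155, 33284 and 51492 bp from the lower end, and H1C had none. Their control pileups were 41, 23 and 30. The one at 4155 bp stands on a high local background in control. At that background scaled for depth, an H1C summit of 34 would have reached the lowest −log10 p of the H1C list, a log2 ratio of -0.41. At the Zfpm1 gene-end region the background was lower with H1C (11.3) than in control (14.9). At a lower background a lower summit would be enough, so 34 may be too high. Why the region was not called was not tested. A distal region 5110 bp beyond the gene (pileup 27) was in control only, and the region at the shared ends of Gm39270 and Zc3h18 was kept with pileups of 35 with H1C and 59 in control (-0.90, -1.54 to -0.27).

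Tfrc, the transferrin receptor gene through which red cell precursors take up iron, lies on chromosome 16, 32608896 to 32632794, on the plus strand. Its start region runs from 32608677 to 32609303 with H1C and from 32608722 to 32609449 in control. The pileup was 45 with H1C and 68 in control, and the fold 6.73 with H1C and 10.3 in control. The log2 ratio was -0.74 (-1.31 to -0.17), the highest of the 3 kept gene-end regions, although the 3 intervals overlap and no order among Tfrc, Zfpm1 and Nfe2 can be read from them.

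In the flanks of Tfrc 3 of 5 control regions were kept. A weak distal region 10154 bp from the lower end in control had a pileup of 18 with H1C and 15 in control, the single shared region near the 8 genes whose log2 ratio was above 0 (0.12, -0.95 to 1.21). The distal region 18201 bp beyond the higher end in control, inside the kinase gene Tnk2, had 26 with H1C and 45 in control (-0.93, -1.69 to -0.21). At an end of Tnk2 the pileup was 24 with H1C and 33 in control (-0.60, -1.42 to 0.20). Distal regions with control pileups of 23 and 21 were in control only.

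Vwf, which encodes the clotting glycoprotein von Willebrand factor of platelets and endothelium, lies on chromosome 6, 125552948 to 125686679. No region touched either end in either library. Inside the gene H1C had no region and control had 1, from 125572422 to 125573555, with its summit 20421 bp from the lower end. At 1134 bp it was the widest region inside a member gene, with a pileup of 53, a fold of 7.58 and a −log10 q of 27.9. It was the strongest control-only region near the 8 genes.

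Among all distal control regions with pileups of 51 to 60, 77.1% were kept in H1C (507 of 658), so the Vwf region belongs to the minority of its class. An H1C summit of 18 at the same depth-scaled background would have reached the lowest −log10 p of the H1C list. That corresponds to a log2 ratio of -1.70. As for Klf1, a lower summit would be enough at a lower H1C background, so 18 may be too high. The median log2 ratio of all shared distal regions was -0.64. That median covers all control pileups and only regions called with H1C, so it is not a like measure for an uncalled region. The other control regions of the Vwf window, with pileups of 31, 22 and 17, were also in control only. The 31 and 22 lay 11781 and 20235 bp from the lower end, between Vwf and Cd9. In the same interval lay the only H1C region without a control partner near the 8 genes, from 125524645 to 125524870, with a pileup of 19 and a fold of 3.58.

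Pf4, which encodes a chemokine of platelet granules, lies on chromosome 5, 90772435 to 90773383, in a cluster with Ppbp, another platelet chemokine gene, and Cxcl5, Cxcl3 and Cxcl15. No region was called within 50 kb in H1C, and the nearest lay 75973 bp from the start. Control had 2 regions, both distal and on the lower-coordinate side of the gene. The one 30038 bp from the start, from 90742062 to 90742397, had a pileup of 41 on a background at the genome-wide level and a fold of 8.42, the highest fold of any distal region near the 8 genes. An H1C summit of 14 would have reached the lowest −log10 p there, a log2 ratio of -1.69. Of all distal control regions with pileups of 41 to 50, 54.1% were kept. The other Pf4 region was weak, with a pileup of 14.

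Cd9, a tetraspanin gene of megakaryocytes, platelets and stem cells, lies on chromosome 6, 125460266 to 125494760, on the minus strand. It had the most control regions, 10, and 2 H1C regions, 1 of them shared. Its gene-end region lies at the 3′ end of the gene and not at its start, from 125461152 to 125461535, with a pileup of 17 in control and no H1C partner. The start itself was 29885 bp from the nearest region with H1C and 11966 bp from it in control. Inside the gene were 3 further control regions, with pileups of 21, 31 and 24, and none with H1C.

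The strongest region of the Cd9 window, 14431 bp beyond the 3′ end in control, was the one that was kept, with pileups of 21 with H1C and 41 in control (log2 ratio -1.11, -1.94 to -0.31). It was 201 bp wide with H1C and 542 bp in control. Of the control-only regions of Cd9, none had a pileup above 31. The Cd9 region farthest from its gene, 48980 bp away, was the control region just inside the 50 kb bound (pileup 18), and the first control region outside the bound lay 52089 bp from Nfe2 (pileup 23). With H1C the last region inside lay 46741 bp from Nfe2 (pileup 36) and the first outside 54710 bp from Klf1 (pileup 71).

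Over the 14 shared regions near the 8 genes, the summit was lower in H1C at 13, and the whole interval lay below 0 at 11. The median depth-scaled log2 ratio was -0.92 (quartiles -1.10 and -0.76), against -0.79 (-1.01 and -0.51) over all 10874 shared regions, of which 93.7% were below 0. At gene ends the median was -0.82 for the 3 member regions and -0.94 for the 7 at ends of other genes, against -0.84 over all gene-end regions. The 4 shared distal regions had a median of -0.92, and 3 of them were below 0. H1C regions were narrower than their control partners at 13 of 14, against 87.1% of all shared regions, and had a lower fold at 13 of 14, against 90.1%. Scaled by the median local background at shared summits, a ratio of 0.869 in place of 1.10, the median near the 8 genes was -0.57. Every interval rises by the same step with that ratio, so fewer than 11 then lie wholly below 0. Only those of the regions at ends of Nfe2, Gcdh, Dnase2a, Copz1 and Cbx5 with Hnrnpa1 stay wholly below 0. All the other intervals then include 0, among them those of the Zfpm1 and Tfrc gene-end regions.

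**Figure D3:**
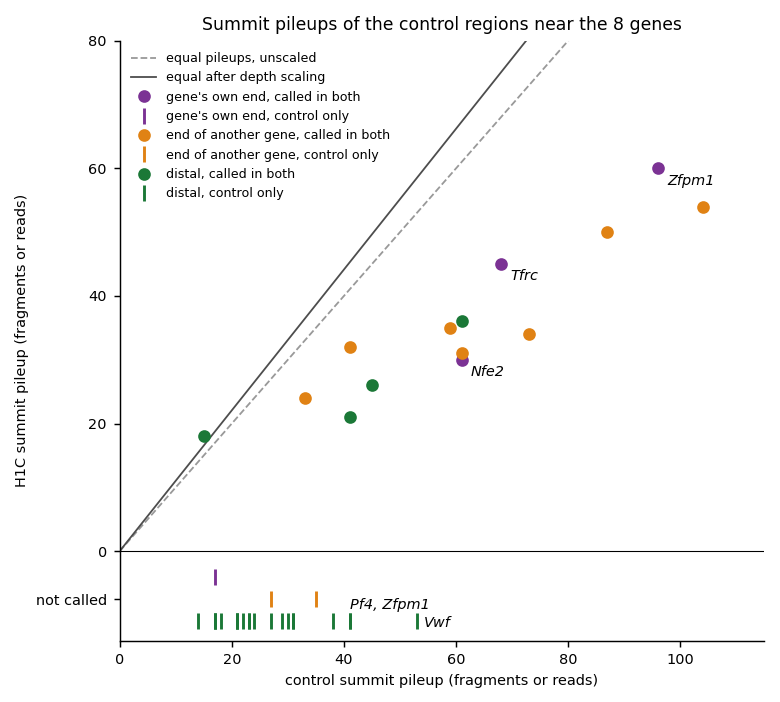
Summit pileup with H1C (y axis) against control (x axis) for the 38 control regions near the 8 genes, both in fragments or reads; points are regions called in both lists and ticks below the axis are regions called in control only, with a lane for each class. Of the 14 points, 13 lie below both lines of equality, and the ticks reach up to 53 at Vwf and 41 at Pf4 and inside Zfpm1.

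Whether a region was kept followed its control pileup, near these genes as elsewhere. The kept regions had control pileups of 15 to 104 (median 61) and the lost ones 14 to 53 (median 23.5). All 8 control regions with a pileup above 60 were kept, and 1 of 18 with a pileup up to 30. Genome-wide the share kept at gene ends ran from 6.13% at pileups up to 20 to 100% above 80, and in distal regions from 9.21% to 99.2%. The distal regions near the 8 genes were weak, with a median pileup of 24 in control against 23 over all distal control regions, and 16 of the 25 had pileups up to 30.

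**Figure D4:**
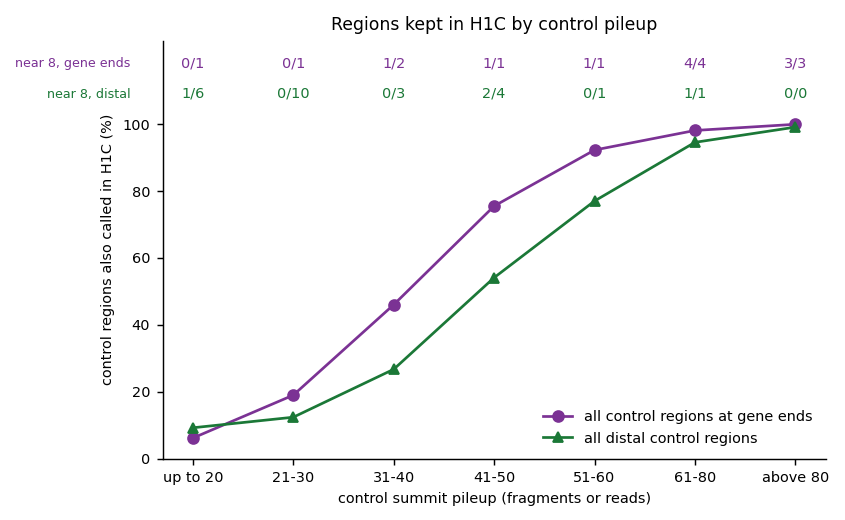
Share of control regions also called in H1C (y axis, %) by control summit pileup (x axis, fragments or reads), over all control regions at gene ends (purple) and all distal ones (green). The fractions above give kept and total control regions near the 8 genes in each step, at ends of any gene (purple) and distal (green): above a pileup of 60 every one was kept, and at 21 to 30 none of 10 distal regions was.

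Other erythroid and megakaryocyte genes were examined at their ends. Of 35 erythroid genes found in the annotation, of 36 listed, 7 had a gene-end region with H1C and 17 in control, against 33.6% of all genes with H1C and 46.9% in control. Of the 17, 6 were kept (35.3%, 14.2 to 61.7), against 71.0% of all genes with one in control. The control pileups of the 17 were low, with a median of 32, against 49 over all genes that had one in control, and the part of this in the lower share was not tested. The kept genes included Epb41, a membrane skeleton gene (48 with H1C and 88 in control), and the heme synthesis gene Ppox (35 with H1C and 63 in control). The heme synthesis genes Cpox and Fech were kept as well. All 6 had a lower depth-scaled summit with H1C, with a median log2 ratio of -0.75.

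Among the 11 erythroid genes in control only, the highest pileups were at Ermap, an erythrocyte membrane gene (81), Urod, of heme synthesis (52), and Icam4, an adhesion molecule gene (46). The Ermap region was itself overlapped by an H1C region that lay outside the 1 kb bound, so it was not lost. Epor (21), the erythropoietin receptor, Gfi1b (32) and Tal1 (28), both transcription regulators of these lineages, were in control only. Uros, of heme synthesis, had a gene-end region with H1C only (pileup 15). The globin genes Hba-a1, Hbb-bt and Hbb-bs, and Alas2, were among 17 genes with no gene-end region in either library.

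Of 28 megakaryocyte genes, 6 had a gene-end region with H1C and 10 in control, against the same 33.6% of all genes with H1C and 46.9% in control. Of the 10, 6 had one in both (60.0%, 26.2 to 87.8). At 1 of the 6, Zfp385a, the H1C and control regions did not overlap, so 5 had the same region in both libraries. Of all genes with one in control, the same 71.0% had one in both, and the median control pileup of the 10 was 29.5. The kept genes included the transcription factor gene Runx1 (26 with H1C and 57 in control) and the adaptor gene Lat (26 with H1C and 37 in control). At each of the 5 the highest depth-scaled gene-end summit was lower with H1C. Itgb3, an integrin subunit of platelets (33), F2rl2, a thrombin receptor gene (25), Thbs1 (22) and Gp5 (16) were in control only. The platelet surface genes Itga2b, Gp9, Gp1ba, Gp1bb and Gp6 had none in either library, as had Fli1 and Gata2.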

How the data were processed

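ATAC-seq libraries of H1C-transduced and control stem cells, 1 each, were compared. The submitters' processing notes list build mm10 with MACS2, featureCounts, Picard, Bowtie2 2.2.9 and Trim Galore 0.4.4; their settings, duplicate handling and any shift to the cut site are not given in the sources used here, and could alter summit heights and positions. Regions were called per library. The deposited fold is a ratio of summit pileup to local background within a library. The deposited −log10 p and −log10 q and the deposited score are the peak caller's, and describe regions within a list. No read totals are given.

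Pileup and local background were solved from fold and Poisson −log10 p (whole within a relative tolerance of 0.0001 for 13155 of 13156 H1C and 32005 of 32005 control regions), and the solver was tested on simulated data. Depth was taken as the lowest local background. Regions sharing at least 1 bp were counted as shared, and the H1C partner with the highest pileup was used. Shares have exact Clopper-Pearson and pileup ratios exact conditional binomial 95% intervals. Genes and promoters came from RefSeq GRCm38.p6 tables. All members were named, with their gene-end and gene-body regions and the strongest other region; of the other lists, the 3 kept and 3 control-only genes with the highest pileup and each H1C-only gene were named, and further names were chosen after their values were seen. Some genes that this rule named are left out of the text. Members and lists were chosen with earlier results of these data known. Promoter composition, motifs, pileup steps and the H1C summit limits were added after the data were seen. Alternatives covered threshold, overlap, windows, list length and depth ratio. Tools were scipy 1.17.1, pandas 2.3.3, numpy 2.4.6 and matplotlib 3.10.9 under Python 3.11.15.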

Additional observations from a re-analysis of the deposited data

How the results depend on the processing

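Of 28 alternative values for 5 results, 19 kept to the main value's interval, its quartiles or, for counts, a factor of 1.5, and 9 moved. Only the log2 ratio could change sign, and its median stayed below 0 under each alternative run for it. Flanks of 10 kb gave 7 H1C and 17 control regions, and flanks of 100 kb gave 29 H1C and 77 control regions. Without regions at ends of other genes 8 H1C regions were left. These follow from the narrower or wider selection. With lists of equal length, taken by −log10 p, 18 control regions were left and 72.2% of them were kept; among those of pileup 30 or more 61.9% were kept. For these 2 shares the cause was not tested. The median log2 ratio was -0.57 with the local background ratio, which shifts every region by the same step. The count of 3 genes kept at their ends held under each alternative run for it. No paired analysis was possible because there was a single library in each group. The lowest pileup called was 14 with H1C and 12 in control, and weaker regions could not be seen in these lists.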
